A study of Mus musculus with 30 samples.

Results

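The genes described here, Terb1, Terb2, Majin, Sun1, Spdya and Cdk2, encode the machinery that ties chromosome ends to the nuclear envelope in meiotic prophase. They were chosen by symbol from the adult count table, and their Ensembl identifiers were joined to the day 8 and day 10 tables. All 6 were found, among 55566 features in the adult table, 15145 genes at day 8 and 14846 genes at day 10, and all 6 passed the adult filter on low counts. The study profiled testis RNA of C57BL/6J mice carrying mutant Ythdc2, the gene of an RNA helicase that germ cells need to carry through entry into meiosis. Day 8 set 3 Ythdc2 -/- animals against 3 Ythdc2 +/+ animals. Day 10 set 3 Ythdc2 -/- animals against 2 Ythdc2 +/- animals and 1 Ythdc2 +/+ animal, so its controls are mostly heterozygous. By the numbers in the labels, each juvenile animal gave a total RNA library and a library of ribosome footprints, mRNA fragments covered by a ribosome. Adult testis came from 3 Ythdc2 WLA/WLA and 3 Ythdc2 WLA/+ mice, in each genotype 2 aged 24 weeks and 1 aged 20 weeks; the labels do not say what the WLA change is, and no adult group is wild type.

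In early meiotic prophase telomeres attach to the inner nuclear membrane, and movement of the attached ends along it helps homologous chromosomes find each other and synapse. TERB1, TERB2 and MAJIN form the meiotic adaptor between telomere and membrane, with MAJIN as its membrane subunit. SUN1 spans the inner membrane and, through its partner KASH5, links the telomere to dynein in the cytoplasm. CDK2, a cell cycle kinase also used by dividing cells, sits at meiotic telomeres with Speedy A, its non-cyclin activator and the product of Spdya. In mice Terb1, Terb2, Majin and Spdya are known chiefly from germ cells, whereas Sun1 and Cdk2 are used widely.

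Per the RefSeq annotation of GRCm38.p6, the assembly also called mm10, Terb1 (ENSMUSG00000052616.10) spans bases 104446718 to 104509887 of chromosome 8. Terb2 (ENSMUSG00000027229.5) spans 122186272 to 122206393 of chromosome 2, and Majin (ENSMUSG00000024786.9) spans 6184345 to 6224230 of chromosome 19. Sun1 (ENSMUSG00000036817.14) lies at 139200564 to 139249839 of chromosome 5. Spdya (ENSMUSG00000052525.14) lies at 71526895 to 71589533 of chromosome 17, where the annotated span of Trmt61b overlaps it by 32507 bases. Cdk2 (ENSMUSG00000025358.16) lies at 128697938 to 128705051 of chromosome 10, wholly inside the annotated span of Pmel. Whether the authors counted by strand is not given in the sources used here, so reads of Spdya and Cdk2 may include some from these overlapping genes.

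For the juvenile libraries the values are the authors' effects from anota2seq, knockout against control, with p-values the authors adjusted over all genes of a table. They are read as log2, and they carry no value per animal, so neither depth nor spread can be given. Over all genes, total RNA effects had a standard deviation of 0.057 (day 8) and 0.067 (day 10), so their sizes are read against one another and not as folds. The juvenile level of Ythdc2 itself was not analysed here. A threshold of 0.05 on the adjusted p was used throughout.

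At day 10, an age at which meiotic prophase begins in mouse testis, the telomere adaptor and Speedy A genes had effects far below 0 in the knockout. Sun1 and Cdk2 stood nearer 0. No gene of the table passed 0.05 there, and whether the 6 differ from one another was not tested. In the authors' deposited table Terb1 had the lowest total RNA effect of the 6, at -0.66 (anota2seq adjusted p 0.0974), which is rank 10 from the lowest of 14846 genes. Spdya followed in the authors' deposited table at -0.47 (anota2seq adjusted p 0.162), rank 24 from the lowest. The membrane subunit gene Majin stood at -0.32 in the authors' deposited table (anota2seq adjusted p 0.0974, rank 48), and the adaptor gene Terb2 at -0.25 (adjusted p 0.177, rank 91). These 4 genes thus lay among the 91 lowest of the table.

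Sun1 and Cdk2 lay closer to the middle of the table, though below the lower quartile of all genes (-0.030). The authors' deposited table gave Sun1 -0.065 in day 10 total RNA (anota2seq adjusted p 0.419), with 10.5% of all genes lower. Cdk2 stood at -0.045 in the authors' deposited table (anota2seq adjusted p 0.592), with 17.2% of all genes lower. All 6 members lay below 0, as did 48.3% of all genes, and their median was -0.29 beside 0.00058 over all genes.

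None of the 6 passed 0.05 in day 10 total RNA, where 0% of genes did in the authors' deposited table. Under a looser threshold of 0.1 on the anota2seq adjusted p, the authors' deposited table held Terb1 and Majin as lower, with 0.0808% of all genes. No further member passed 0.15, where 0.694% of all genes did as lower. In bulk testis, fewer cells of a type and less RNA per cell cannot be told apart, and Terb1, Terb2, Majin and Spdya are expressed mainly in germ cells that have entered meiosis.

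**Figure D1:**
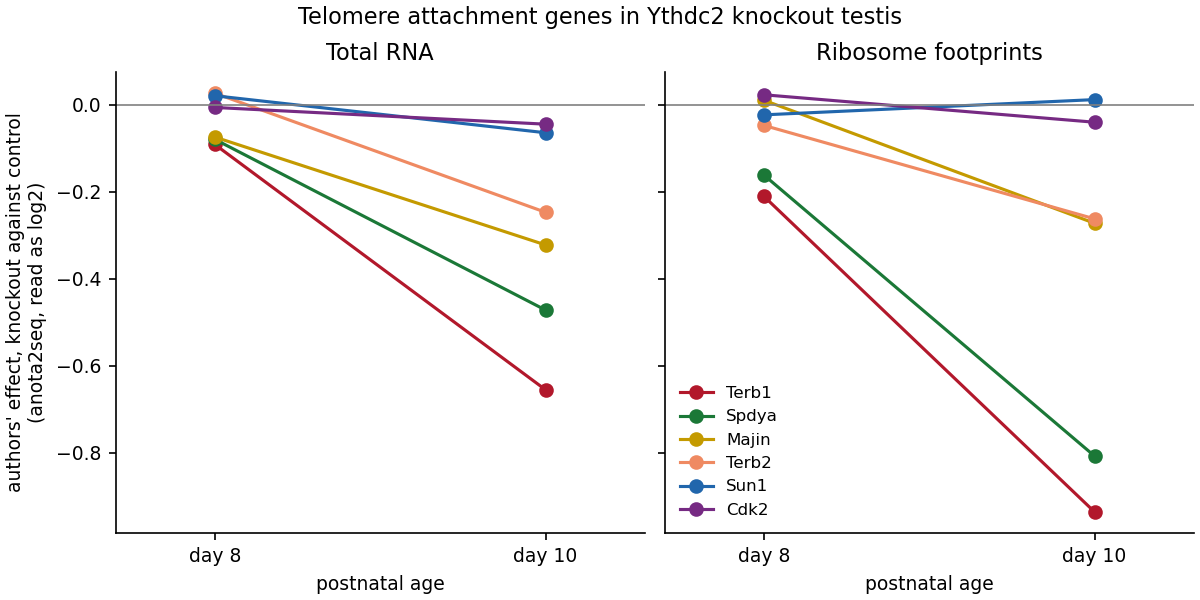
Effects in Ythdc2 knockout testis against control (authors' anota2seq effects, read as log2) at day 8 and day 10, for total RNA on the left and ribosome footprints on the right, with 1 line per gene. Terb1 and Spdya reach -0.66 and -0.47 in total RNA at day 10 and -0.94 and -0.81 in footprints, while Sun1 and Cdk2 stay within 0.065 of 0 in every panel.

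Footprints at day 10 gave the same order at the low end. The authors' deposited table gave Terb1 a footprint value of -0.94 (anota2seq adjusted p 0.265), again rank 10 from the lowest of 14846 genes. Spdya had one of -0.81 in the authors' deposited table (anota2seq adjusted p 0.376), rank 14 from the lowest. Both footprint effects lay further from 0 than the total RNA effects of the same genes, by 0.28 for Terb1 and by 0.34 for Spdya. Footprint effects were also spread wider over all genes, with a standard deviation of 0.115 beside 0.067 for total RNA. In units of these standard deviations, Terb1 stood at -8.17 in footprints and -9.84 in total RNA. Spdya stood at -7.05 and -7.09, so neither gene was further out in footprints on that scale.

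The other adaptor genes had footprint effects close to their total RNA effects. Majin stood at -0.27 in footprints in the authors' deposited table (anota2seq adjusted p 0.873) and Terb2 at -0.26 (adjusted p 0.819). Among all genes these were ranks 216 and 255 from the lowest, less extreme than their ranks of 48 and 91 in total RNA. Cdk2 stood at -0.041 and Sun1 at 0.011 in the authors' deposited table, both with an anota2seq adjusted p of 0.997. Below 0 were 5 of 6 members, beside 50.9% of all genes. No member passed 0.05, where 0% of genes did, and none passed 0.15, where 0.0269% of genes did as lower in the authors' deposited table (anota2seq).

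**Figure D2:**
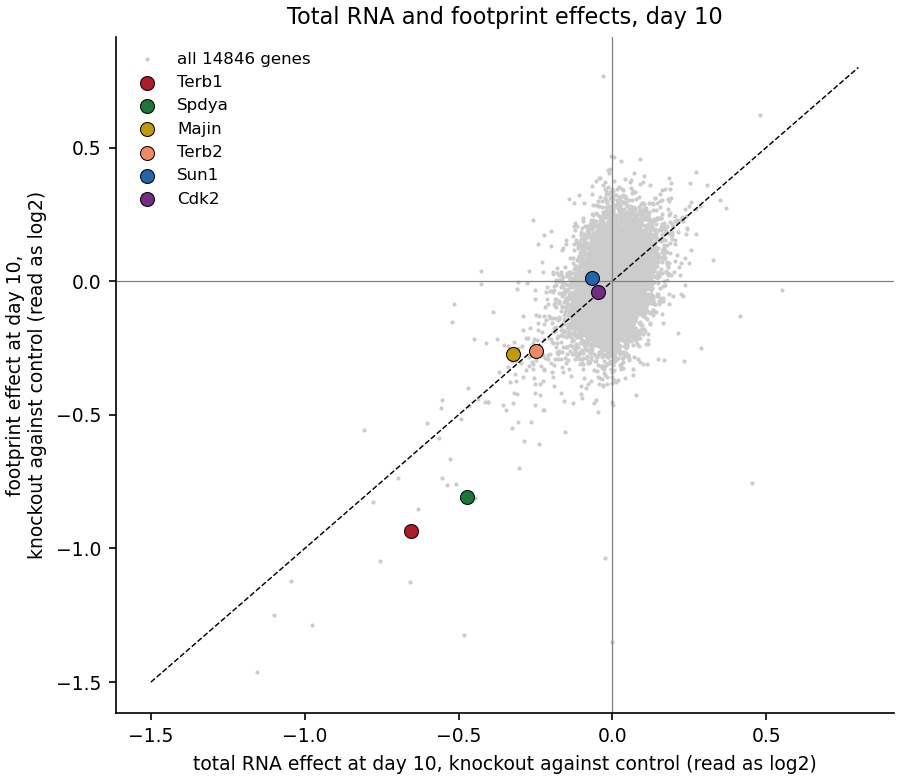
Day 10 footprint effect against total RNA effect (authors' effects, knockout against control, read as log2), with all 14846 genes in grey, the 6 telomere attachment genes in colour and a dashed line of equal effects. Terb1 and Spdya lie at the low end below the line, Majin (-0.32, -0.27) and Terb2 (-0.25, -0.26) lie close to it, and Sun1 and Cdk2 lie within the cloud.

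At day 8, before most germ cells reach prophase, the effects were small. Total RNA effects in the authors' deposited table were -0.092 for Terb1, -0.080 for Spdya and -0.075 for Majin. They were -0.0066 for Cdk2, 0.020 for Sun1 and 0.026 for Terb2 in the authors' deposited table. Terb1, Spdya and Majin were the lowest of the 6 at both ages, whereas Terb2 was the highest of the 6 at day 8. The anota2seq adjusted p ran between 0.539 and 0.982, no member passed 0.05, and 0.0528% of all genes did. Below 0 were 4 of 6 members, beside 52.8% of all genes.

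Day 8 footprints placed Terb1 at -0.21 and Spdya at -0.16 in the authors' deposited table, with 2.11% and 4.97% of all genes lower. Terb2 stood at -0.048, Sun1 at -0.024, Majin at 0.010 and Cdk2 at 0.023 in the authors' deposited table. The anota2seq adjusted p was between 0.980 and 0.999, and no member passed 0.05, where 0% of genes did. Here 4 of 6 members lay below 0, beside 48.5% of all genes. The ages were compared by the authors in separate fits with different controls, so whether an effect differed between ages was not tested.

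Translation in anota2seq is the footprint change left after regression on total RNA, and for both members that passed its sign was opposite to that of the plain difference of footprint and total RNA effects. The authors' deposited table gave Terb1 a day 8 translation value of 5.02 (anota2seq adjusted p 1.1e-05), the fourth highest of 15145 genes, whereas its footprint effect minus its total RNA effect was -0.12. For Majin the authors' deposited table gave -0.92 in day 10 translation (anota2seq adjusted p 0.0245), whereas its plain difference was 0.050. Majin's footprint and total RNA effects themselves were both negative. These were the only members past 0.05, 1 of 6 at each age, beside 1.33% of all genes at day 8 and 2.68% at day 10.

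The slope of the authors' regression can be worked back for each gene by taking the translation effect from the footprint effect and dividing what is left by that of total RNA. For Terb1 at day 8 this slope was 57.1, and for Majin at day 10 it was -2.02. By default anota2seq sets genes aside whose slope is under -1 or over 2. All 202 genes past 0.05 at day 8 had a slope outside that range, as did 42.6% of all genes, and at day 10 this held for 392 of 398 genes past 0.05 and 48.8% of all genes. It also held for 24 of 25 genes that the authors classed as translation at day 8 and for 44 of 53 at day 10. Whether that default was applied, or whether the slope worked back is the one the authors' run used, was not tested. At day 10 the slopes of Terb1 (1.59), Sun1 (1.70), Spdya (1.27) and Terb2 (1.17) lay inside the range, and none of these genes passed 0.05 in translation. Their day 10 translation effects in the authors' deposited table were 0.10, 0.12, -0.21 and 0.027, and that of Cdk2, with a slope of -0.25, was -0.052.

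At day 8 the other translation effects in the authors' deposited table were -0.62 for Spdya (anota2seq adjusted p 0.141, slope -5.75), -0.13 for Majin, -0.074 for Sun1, -0.035 for Terb2 and 0.038 for Cdk2. The authors' own class put Terb1 at both ages in the background. Majin at day 10 was classed as buffering, their term for a total RNA change that footprints do not follow. The plain effects of Majin did not show such a split, since its footprint effect of -0.27 lay close to its total RNA effect. Its buffering effect was -0.39 in the authors' deposited table (anota2seq adjusted p 0.0274, passed by 1.37% of genes), further from 0 than its total RNA effect of -0.32, and the slope worked back for it was -0.25. No member passed 0.05 in buffering at day 8, where 1.49% of genes did.

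**Figure D3:**
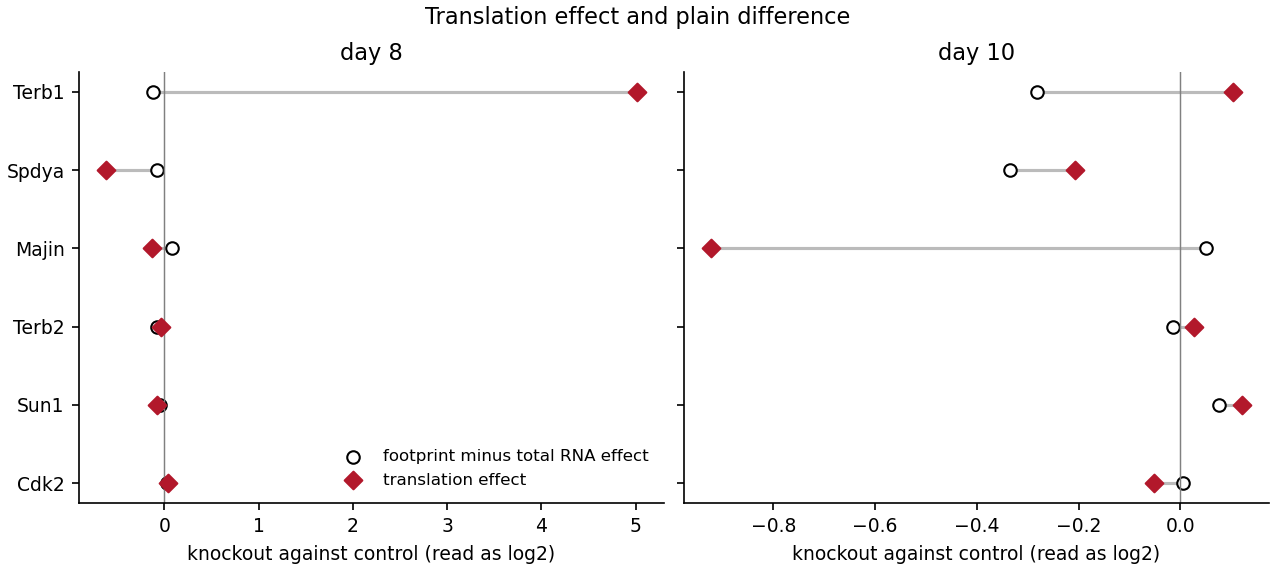
Translation effect (diamonds, authors' anota2seq) beside the plain difference of footprint and total RNA effects (open circles), knockout against control and read as log2, for each gene at day 8 and day 10. The marks of Terb1 at day 8 (5.02 and -0.12) and of Majin at day 10 (-0.92 and 0.050) fall on opposite sides of 0.

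Other genes that act with meiotic telomeres were read from lists chosen with earlier results of these data known. KASH5, the cytoplasmic partner of SUN1, is encoded by Ccdc155, which by the authors' deposited table stood at -0.41 in day 10 total RNA and -0.23 in footprints (anota2seq adjusted p 0.152 and 0.929). The other 8 genes of the nuclear envelope list were between -0.061 and 0.11 in day 10 total RNA, with the widely used SUN1 relative Sun2 highest at 0.11 in the authors' deposited table. None of the 9 passed 0.05, and their median was -0.029.

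Telomere proteins of all cells stayed near 0. The shelterin list, which coats telomeres and through TRF1 meets TERB1, had a day 10 total RNA median of 0.021 over 7 genes, from Pot1b at -0.083 to Pot1a at 0.072 in the authors' deposited table. Dynein, dynactin and their regulators, the motor side of the link, had a median of 0.059 over 9 genes, led in the authors' deposited table by Ndel1 and Dync1li1, both at 0.089. Partners and inhibitors of CDK2 had a median of 0.019 over 9 genes, and the cyclin genes Ccne2 at -0.11 and Ccna2 at 0.10 were its extremes in the authors' deposited table. None of these genes passed 0.05 in total RNA or footprints at either age (anota2seq). In translation, the authors' deposited table gave the shelterin gene Acd -0.80 at day 8 (anota2seq adjusted p 0.0153), with a plain difference of footprint and total RNA effects of 0.18. It gave the dynein light chain gene Dynlrb1 0.58 at day 10 (anota2seq adjusted p 0.0324), with a plain difference of -0.040 in the authors' deposited table. For both genes the translation value and the plain difference had opposite signs. The nuclear envelope gene Syne1 had a day 8 buffering value of 0.75 in the authors' deposited table (anota2seq adjusted p 0.000407), beside 0.097 in total RNA and 0.18 in footprints.

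Other germ cell genes of prophase had effects on both sides of 0, most of them below it. The list of meiotic cohesin genes and Fbxo47, a meiotic gene whose product has been tied to telomere attachment, had 5 of 6 genes below 0 in day 10 total RNA and a median of -0.26. Fbxo47 stood at -0.76 and Rad21l, a meiotic cohesin kleisin, at -0.63 in the authors' deposited table (both anota2seq adjusted p 0.102), while another kleisin gene, Rec8, stood at 0.27 (adjusted p 0.121). Over 31 other early prophase genes the median was -0.29, the quartiles were -0.35 and -0.15, and 28 lay below 0. Terb1 and Spdya were below the lower quartile of that list, Majin and Terb2 within its quartiles, and Sun1 and Cdk2 above its upper quartile. The lowest of the 31 in the authors' deposited table were Meiob, of meiotic strand exchange, at -1.16 (anota2seq adjusted p 0.0974) and Gm4969, also known as Meiosin and a meiotic entry factor, at -1.05 (adjusted p 0.0546). The highest in the authors' deposited table was Stra8, a meiotic entry factor that acts with Meiosin, at 0.20 (anota2seq adjusted p 0.102), and Tex11 (0.015) and Rec114 (0.0021) were the others above 0. None passed 0.05 in total RNA at day 10, and at day 8 Gm4969 did, at -0.41 by the authors' deposited table (anota2seq adjusted p 0.00573).

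Translation calls on that list were read with the plain difference of footprint and total RNA effects beside them. At day 8 the authors' deposited table (anota2seq) gave Prdm9 -4.92 with a plain difference of 0.38, Hormad2 -3.51 with 0.00045 and Mei4 -1.26 with 0.022. These 3 genes had opposite signs on the measures, whereas Gm4969 (-3.07 with -0.16) and Msh5 (0.99 with 0.34) had the same sign. At day 10 Spo11 stood at -0.60 with -0.47 and Prdm9 at -0.79 with -0.045 in the authors' deposited table (anota2seq). Over all lists of telomere, prophase and partner genes, the signs were opposite for 4 of 6 translation calls at day 8 and 1 of 3 at day 10. Of the 4, Hormad2 and Mei4 had plain differences near 0, so their sign carries little weight. The same share over all genes past 0.05 was not worked out, so these counts are not read as particular to the lists. Buffering passed 0.05 in the authors' deposited table (anota2seq) for Gm4969 at day 8 (-0.51) and for Spo11 (0.75) and Prdm9 (-0.56) at day 10. Germ cell markers from before meiosis had a day 10 total RNA median of 0.046, with Ddx4 lowest at -0.040 and Kit highest at 0.099 in the authors' deposited table. Sertoli cell markers had a median of -0.021, with Amh lowest at -0.18 and Rhox5 highest at 0.12 in the authors' deposited table. In footprints Amh stood at -0.25 and Rhox5 at 0.25 in the authors' deposited table. In total RNA, markers of red blood cells were all 5 above 0 at day 10 (median 0.14) and all 5 below 0 at day 8 (median -0.18). The 4 markers of endothelium were all below 0 at day 8 (median -0.12). Of all genes, 48.3% lay below 0 at day 10 and 52.8% at day 8. Leydig cell markers had a day 8 total RNA median of 0.018, with 2 of 5 below 0. Their highest was Cyp17a1, at 0.59 in total RNA and 0.67 in footprints in the authors' deposited table (anota2seq adjusted p 0.484 and 0.980). Among markers, the authors' deposited table (anota2seq) had past 0.05 Hba-a2 in day 10 translation (-0.80, plain difference 0.094), Amh in day 10 buffering (-0.53) and Alas2 in day 8 buffering (-0.31). Their part in the effects of the telomere genes was not tested.

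**Figure D4:**
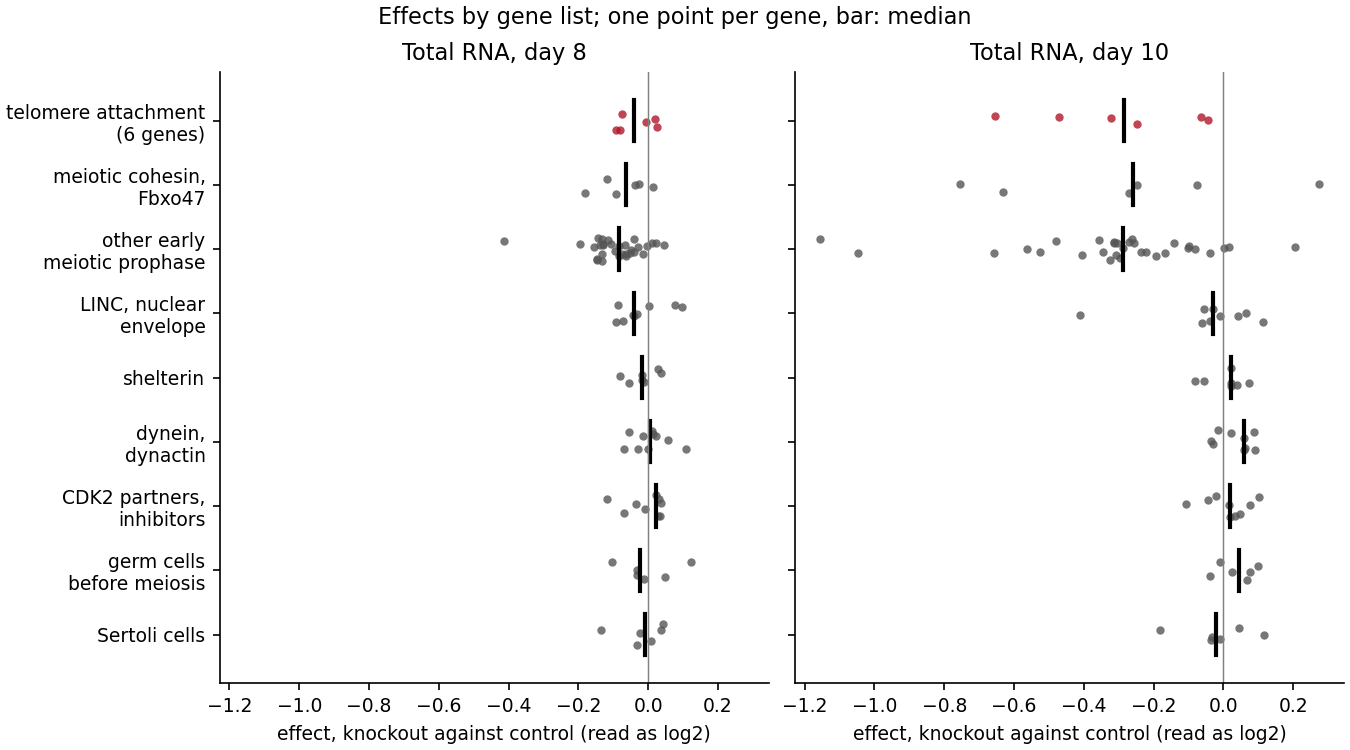
Total RNA effects (authors' effects, knockout against control, read as log2) of the telomere attachment genes in red and of other gene lists in grey, at day 8 on the left and day 10 on the right, with 1 point per gene and a bar at each median. At day 10 the medians of the telomere attachment genes (-0.29), meiotic cohesin with Fbxo47 (-0.26) and other early prophase genes (-0.29) lie left of 0, and the medians of the nuclear envelope, shelterin, dynein, CDK2 partner, premeiotic germ cell and Sertoli cell lists lie between -0.029 and 0.059.

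Likeness was measured over 5 comparisons, total RNA and footprints at both ages and the adult fold change, as the Euclidean distance after each comparison was divided by its standard deviation over 13442 genes. Closest to Terb1 were Spo11, which makes meiotic double-strand breaks (distance 2.49), Fbxo47 (2.69) and Inca1 (2.81), where the median distance over genes was 13.2. Spdya was closest to Gml (1.51), Inca1 (1.78) and Sycp2, a chromosome axis gene (2.06), with a median of 10.4. Terb1 and Spdya lay 3.02 apart, whereas Terb1 lay 8.34 from Majin and 9.05 from Terb2. Majin was closest to Tex16 (1.06), the strand exchange gene Dmc1 (1.24) and Pparg (1.25), with a median of 5.83. Terb2 was closest to Zfp473 (0.49), the checkpoint kinase gene Atr (0.81) and Ttc26 (0.85), with a median of 4.73. Majin and Terb2 lay 2.29 apart and Sun1 and Cdk2 0.89 apart. A gene at 0 in all 5 comparisons would lie 13.1 from Terb1, 10.3 from Spdya, 5.62 from Majin and 4.42 from Terb2. The medians of these 4 members thus mostly follow their own distance from 0. Near 0 many genes are alike, and the closest were Cdk12 (0.13), Lama3 (0.32) and Brix1 (0.33) for Sun1 and Ube2n (0.20), Sh3bgrl (0.26) and Tsc22d1 (0.30) for Cdk2. Total RNA and footprints of an age come from the same animals, so the 5 comparisons are not independent.

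Promoter windows, from 250 bases before to 50 bases after a transcript start, are shown because Terb1 and Spdya stood together at day 10 while Sun1 and Cdk2 did not. The RefSeq table of GRCm38.p6 held windows for 4 of the 6 genes. For Sun1, with 2 windows, the one nearest the gene's annotated start is given. The only Spdya window begins at base 71551811, well inside the gene's annotated span, which begins at base 71526895. Capitals mark matches on either strand to the GC box GGGCGG, the CCAAT box, the E2F motif TTCCCGC, the E-box CACGTG, the MYB motif TAACNG or the motif CNCCTCAG known from STRA8-bound promoters, and each sequence is written 5′ to 3′ on the strand of the gene.
Terb1, chr8:104509838-104510137, minus strand: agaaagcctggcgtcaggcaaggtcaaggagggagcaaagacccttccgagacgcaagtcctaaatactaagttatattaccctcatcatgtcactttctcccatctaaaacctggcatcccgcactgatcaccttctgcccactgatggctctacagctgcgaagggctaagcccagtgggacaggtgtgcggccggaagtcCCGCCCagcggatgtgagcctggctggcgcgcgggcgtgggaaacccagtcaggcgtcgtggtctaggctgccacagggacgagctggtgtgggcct
Spdya, chr17:71551811-71552110, plus strand: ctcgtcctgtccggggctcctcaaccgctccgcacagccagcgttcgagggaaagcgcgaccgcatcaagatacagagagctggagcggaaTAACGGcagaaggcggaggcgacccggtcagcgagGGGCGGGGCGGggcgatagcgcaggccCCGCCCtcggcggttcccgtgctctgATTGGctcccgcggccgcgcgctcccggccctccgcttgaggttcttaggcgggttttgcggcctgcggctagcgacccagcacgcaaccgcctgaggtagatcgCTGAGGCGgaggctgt
Sun1, chr5:139200387-139200686, plus strand: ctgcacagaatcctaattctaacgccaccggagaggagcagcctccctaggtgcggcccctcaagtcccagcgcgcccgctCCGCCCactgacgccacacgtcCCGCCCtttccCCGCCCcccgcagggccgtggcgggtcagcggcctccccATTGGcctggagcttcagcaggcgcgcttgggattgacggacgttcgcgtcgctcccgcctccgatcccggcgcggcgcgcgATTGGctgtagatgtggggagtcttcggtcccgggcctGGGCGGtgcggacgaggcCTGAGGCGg
Cdk2, chr10:128705002-128705301, minus strand: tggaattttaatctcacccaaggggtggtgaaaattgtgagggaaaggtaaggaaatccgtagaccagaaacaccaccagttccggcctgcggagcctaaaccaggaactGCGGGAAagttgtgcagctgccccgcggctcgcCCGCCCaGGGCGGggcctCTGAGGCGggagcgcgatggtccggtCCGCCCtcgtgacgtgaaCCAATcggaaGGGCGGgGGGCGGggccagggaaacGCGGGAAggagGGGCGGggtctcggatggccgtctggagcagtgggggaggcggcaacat

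A GC box was in all 4 windows and in 35.7% of the 32851 windows of the table. In Terb1 it was the sole match, beginning 47 bases before the start. The Spdya, Sun1 and Cdk2 windows also held a CCAAT box (37.4% of all windows) and the STRA8 motif (7.94% of all windows), which began 35 bases after the start in Spdya, 42 bases after it in Sun1 and 89 bases before it in Cdk2. A MYB motif was in the Spdya window (23.3% of all windows) and an E2F motif in the Cdk2 window (4.60% of all windows), and no window held the E-box (7.15% of all windows). The GC boxes of Spdya overlap each other in part. Content of G and C was 59.3% in Terb1, 69.7% in Spdya, 71.3% in Sun1 and 64.7% in Cdk2, beside a median of 52.7% over all windows, and CpG counts were 16, 38, 36 and 25 beside a median of 7. These matches are descriptions of letters and do not show binding.

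In adult testis, where every stage of spermatogenesis is present, the telomere genes of WLA/WLA mice differed little from those of WLA/+ mice. Totals of the adult libraries ran between 33331987 and 43707798 counts. Levels are CPM (counts scaled to library size with TMM), and they are not compared between genes because transcript lengths were not used here. The 3 libraries of a genotype are given in the order of the table.

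Terb1 had 29.7, 31.2 and 30.3 CPM in WLA/WLA testis, against 34.1, 35.1 and 34.1 CPM in WLA/+ testis. Every WLA/WLA library lay below every WLA/+ library. The means were 30.4 ± 0.776 and 34.4 ± 0.587 CPM (SD, n = 3 each), a log2 fold change of -0.18 ± 0.055 SE that missed 0.05 (edgeR adjusted p 0.212, unadjusted p 0.00634). As a percentage the change was -11.8% in WLA/WLA testis, with a 95% interval of -18.8% to -4.17%.

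Spdya had 46.5, 46.3 and 48.7 CPM in WLA/WLA testis, against 48.6, 52.9 and 51.8 CPM in WLA/+ testis. The groups met at their edges, with 1 WLA/WLA library just above the lowest WLA/+ library. The log2 fold change was -0.11 ± 0.054 SE (edgeR adjusted p 0.392). Speedy A's partner gene Cdk2 had 69.8, 70.9 and 71.5 CPM in WLA/WLA testis, against 65.2, 68.4 and 69.3 CPM in WLA/+ testis. Here every WLA/WLA library lay above every WLA/+ library, by a log2 fold change of 0.064 ± 0.048 SE (edgeR adjusted p 0.601).

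Majin had 7.51, 7.66 and 6.52 CPM in WLA/WLA testis, against 6.35, 6.81 and 5.94 CPM in WLA/+ testis. The groups overlapped, and the log2 fold change was 0.18 ± 0.10 SE (edgeR adjusted p 0.482), with an interval of -2.94% to 32.1%. Terb2 had 6.51, 5.52 and 6.52 CPM in WLA/WLA testis, against 5.79, 6.31 and 5.57 CPM in WLA/+ testis. The groups overlapped here too (log2 fold change 0.071 ± 0.11 SE, edgeR adjusted p 0.814), and the interval of the fold change spanned -10.5% to 23.3%.

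Sun1 had 146.3, 142.2 and 143.7 CPM in WLA/WLA testis, against 143.6, 140.7 and 136.3 CPM in WLA/+ testis. The groups overlapped, and the log2 fold change was 0.039 ± 0.044 SE (edgeR adjusted p 0.735). The adaptor subunits thus did not share a direction, with Terb1 at a negative and Majin and Terb2 at positive log2 fold changes, none of them past 0.05, and differences between the genes were not tested.

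**Figure D5:**
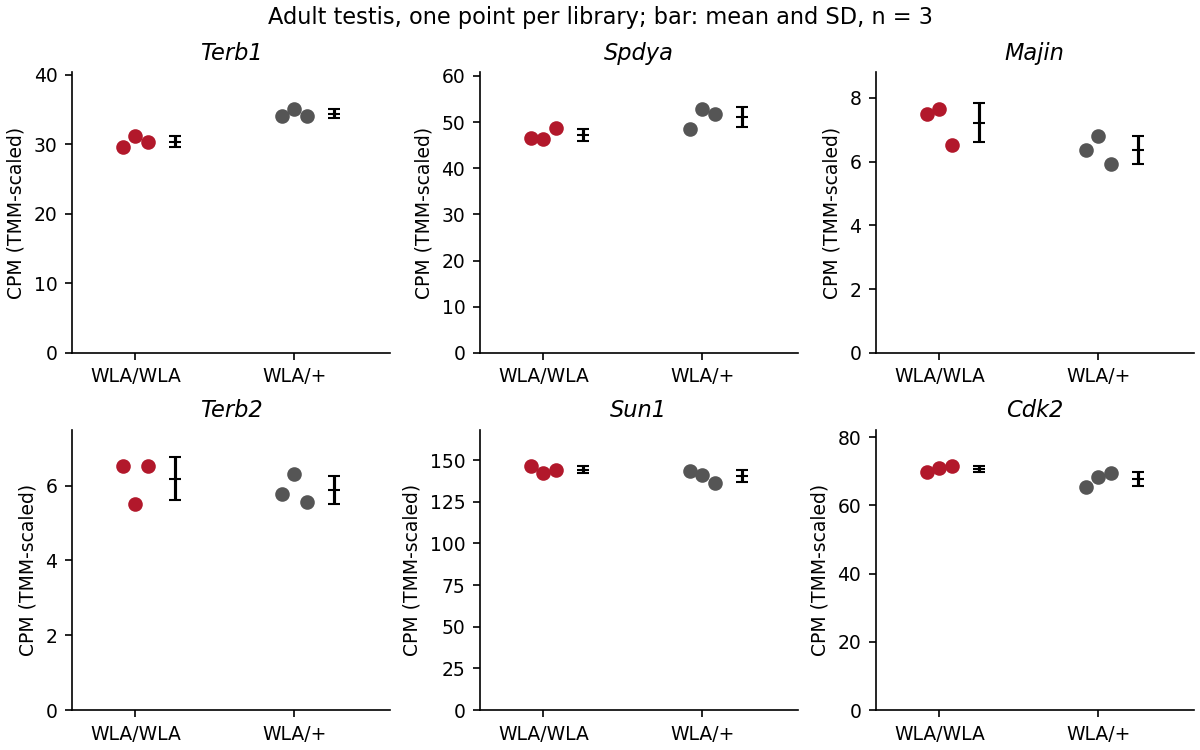
CPM (counts scaled to library size with TMM) of each gene in adult WLA/WLA (left, red) and WLA/+ (right, grey) testis, with 1 point per library and the mean with SD (n = 3) beside it. The WLA/WLA points of Terb1 (29.7 to 31.2) lie below its WLA/+ points (34.1 to 35.1), and those of Cdk2 (69.8 to 71.5) lie above (65.2 to 69.3).

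Of the 6 members 2 had groups that did not overlap, beside 19.3% of all features, and 0 passed 0.05, beside 0.236% (53 of 22446 features, edgeR). By the authors' deposited table (DESeq2) Terb1 had a log2 fold change of -0.18 with an adjusted p of 0.270. The count of features past 0.05 depended on single libraries. It was 1917 without WLA/+ replicate 1, 4 and 15 without WLA/+ replicates 2 and 3, and 3, 4 and 4 without WLA/WLA replicates 1, 2 and 3. Without WLA/+ replicate 1, Terb1 had a log2 fold change of -0.19 (edgeR adjusted p 0.0515) and Spdya one of -0.15 (adjusted p 0.0872).

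Marker sums of the adult groups were not tested. The 5 Leydig cell markers summed to 419.6 to 483.5 CPM in WLA/WLA testis and 260.4 to 411.8 CPM in WLA/+ testis, and the 6 Sertoli cell markers to 154.7 to 155.5 CPM in WLA/WLA testis and 128.2 to 154.5 CPM in WLA/+ testis. The 4 peritubular myoid cell markers summed to 69.9 to 75.2 CPM in WLA/WLA testis and 60.2 to 68.5 CPM in WLA/+ testis. In all of these lists the WLA/WLA range lay above the WLA/+ range, for Sertoli cells only narrowly. The top of the WLA/+ range was set by WLA/+ replicate 1 in each of these lists. This was so too for the endothelium, macrophage and round spermatid lists, but not for red blood cells or germ cells before meiosis. For endothelium, macrophage and red blood cell markers the ranges overlapped. Germ cell markers from before meiosis summed to 807.1 to 836.7 CPM in WLA/WLA testis and 799.7 to 870.1 CPM in WLA/+ testis, and round spermatid markers to 6934 to 7113 CPM in WLA/WLA testis and 5777 to 7165 CPM in WLA/+ testis, so that both WLA/WLA ranges lay inside those of WLA/+. Their part in the levels of the telomere genes was not tested. None of the 75 other genes on the telomere, prophase and partner lists passed 0.05 in adult testis (edgeR), and Ccdc155 had a log2 fold change of 0.069 ± 0.055 SE.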

How the data were processed

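Total RNA and ribosome footprints of juvenile testis and RNA of adult testis were sequenced. Trizol extraction was followed by ribosomal RNA depletion or by poly(A) selection, per the labels' protocols. STAR, mm10 and DESeq2 are named in the submitters' processing notes, without a version or counting program. The authors' adult table has raw read counts per feature for 6 libraries. It also has a deposited mean signal, a deposited Wald score, deposited log2 fold changes and deposited p-values, all made by the authors. Its column names carry genotype only. The juvenile tables deposited by the authors carry effects with adjusted p-values from anota2seq 1.14.0, per the file headers. Those deposited effects were read as log2 because in the authors' translation class footprints and total RNA are at least 0.263 apart, which is log2(1.2).

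Adult counts passed filterByExpr and TMM scaling before edgeR 4.0.16 (R 4.3.3), whose quasi-likelihood p-values were adjusted by Benjamini-Hochberg over 22446 features; the biological coefficient of variation was 6.77%. The code was tested on simulated data, and DESeq2 1.42.0 served as an alternative. Intervals are at 95%. Titles of the libraries bear different numbers, and they were treated as different animals. Counts differed between libraries of a genotype by more than sampling noise. The ratio of chi-square to degrees of freedom was 1.79 to 3.98 for pairs of WLA/WLA libraries. For pairs of WLA/+ libraries it was 10.0 and 9.05 where replicate 1 was in the pair, and 6.35 for replicates 2 and 3. Juvenile tables allow no test of their own. Python 3.11.15, pandas 2.3.3 and matplotlib 3.10.9 were used for joins and figures.

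Members and lists were chosen with earlier results of these data known. Named genes were the 6 members, list genes past 0.05 in any juvenile or adult measure, the 2 genes of each list with the largest absolute day 10 total RNA effect, and the 3 genes closest to each member. Rec8, Stra8, Tex11, Rec114, Ddx4, Kit, Rhox5, Cyp17a1 and neighbouring genes were named after their values were seen.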

Additional observations from a re-analysis of the deposited data

How the results depend on the processing

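Each member kept its adult direction in all 66 alternatives, 11 per gene, and none passed 0.05. Among them, the threshold of 0.15 reuses the main fit, so it could change neither direction nor adjusted p. Leaving out each library in turn gave Terb1 log2 fold changes of -0.19 to -0.16 (edgeR adjusted p 0.0515 to 0.633). The count of adult features past 0.05, 53 in edgeR with TMM, was 595 without a filter on low counts, 198 with DESeq2, 342 at a threshold of 0.15, and 3 to 1917 when each library was left out in turn. The cause of these shifts was not tested. At a threshold of 0.15 in the authors' deposited tables, total RNA held 20 genes at day 8 and 198 at day 10, footprints 4 at day 10, and translation 464 and 910. Subtracting the median of all genes left the sign of all 36 juvenile member effects as it was. No sign could change, since these medians lay within 0.0028 of 0 and every member effect lay further from 0. Footprint effect minus total RNA effect in place of translation reversed both members past 0.05, to -0.12 for Terb1 at day 8 and 0.050 for Majin at day 10, and the other sign was found for 6 of 12 values in all. No paired analysis was possible. The juvenile labels tie total RNA and footprint libraries to an animal, but the juvenile tables hold no values per animal. The adult columns carry genotype only, and their replicate numbers, given in order, pair no animals.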

Other observations

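Of the 5 protein-coding neighbours within 2000 bases of the telomere attachment genes, 4 had day 10 total RNA effects between -0.070 and 0.041, and Patl2 had one closer to that of Terb2. Patl2 ends 82 bases from the annotated span of Terb2 and had a day 10 effect of -0.12 in total RNA and -0.27 in footprints in the authors' deposited table (anota2seq adjusted p 0.453 and 0.712), beside -0.25 and -0.26 for Terb2. Ndc80, a kinetochore gene 37 bases from the annotated span of Spdya, stood at 0.040 and 0.082 in the authors' deposited table. Nae1, 1140 bases from Terb1, stood at 0.041 in total RNA and -0.099 in footprints in the authors' deposited table. Pmel, whose annotated span holds Cdk2, stood at -0.070 in total RNA and -0.21 in footprints in the authors' deposited table (anota2seq adjusted p 0.569 and 0.865).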
